A study of Homo sapiens with 8 samples.

Results

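Distal open-chromatin peaks that stayed in the peak list of NCI-H295R cells under each of 3 drug treatments are described here. A vehicle peak was called distal when its summit lay more than 1 kb from both annotated ends of every protein-coding gene, and counted as kept when peaks of all 3 treated lists each overlapped it by 1 bp or more. The rule selected 20979 peaks, which were 43.3% of the 48491 distal vehicle peaks (95% Wilson interval 42.82 to 43.71, as all intervals given here covering counting error only and treating peaks as independent) and part of a vehicle list of 61016 peaks. The other 27512 distal vehicle peaks were missing from at least 1 treated list, and 10573 of them from all 3. Members were chosen by the presence or absence of peaks in these same lists, so counts of overlap are a description and carry no test.

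NCI-H295R is an established human adrenocortical carcinoma cell line, a single line grown in plates, and each condition was assayed by ATAC-seq, in which a transposase inserts sequencing adapters into open chromatin. Cells received the EZH2 inhibitor EPZ-6438 (EZH2i, 62 µM, 96 h), the CBP inhibitor PRI-724 (CBPi, 26 µM, 96 h), forskolin (FSK, 10 µM, 48 h after 48 h of vehicle) or the vehicle DMSO (96 h). Both inhibitor doses were the half-maximal inhibitory doses according to the labels. Each of the 4 groups had 2 biological replicates but 1 deposited peak list that joins them, so replicate error cannot be given for any value and p-values were not computed. The EZH2i list held 41086 peaks over 31.50 Mb, the CBPi list 47161 over 36.68 Mb, the FSK list 51095 over 35.74 Mb and the vehicle list 61016 over 42.73 Mb. Read depth is unknown for these lists, and a peak can leave a list by falling just under the caller's threshold.

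Open chromatin away from annotated gene ends holds enhancers, insulators bound by CTCF, promoters of non-coding RNAs, and alternative promoters that start a gene downstream of its outermost annotated end. EZH2 is the methyltransferase of Polycomb repressive complex 2, CBP is an acetyltransferase and coactivator often found at enhancers, and forskolin activates adenylyl cyclase and so raises cAMP, the second messenger of ACTH in the adrenal cortex. Promoters of widely used genes are often rich in G and C and carry GGGCGG boxes bound by the SP and KLF families and CCAAT boxes bound by NFY.

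Promoter sequences are shown first because RefSeq transcription starts were common at the largest members. Of 96 members among the 100 largest by area that the table of starts could be set against, 35 had an inner start of a protein-coding gene within 1 kb and a further 14 the start of a long non-coding RNA (lncRNA). The 150 bases before the start are shown for 3 protein-coding genes and 3 lncRNA genes whose start lay under one of the largest members. Sequences are from RefSeq on GRCh38.p14 (hg38), 5′ to 3′ on the strand of the gene. Capitals mark matches, on either strand, to the motifs searched below.
RGMB, chr5:98773513-98773662, plus strand: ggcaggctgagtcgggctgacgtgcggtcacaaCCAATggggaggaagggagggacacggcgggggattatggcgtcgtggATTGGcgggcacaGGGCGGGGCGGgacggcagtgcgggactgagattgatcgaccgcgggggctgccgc
DCUN1D4, chr4:51843003-51843152, plus strand: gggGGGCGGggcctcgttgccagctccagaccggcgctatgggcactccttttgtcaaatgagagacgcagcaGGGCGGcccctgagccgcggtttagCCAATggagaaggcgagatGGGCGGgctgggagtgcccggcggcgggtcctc
ZMYM2, chr13:19958577-19958726, plus strand: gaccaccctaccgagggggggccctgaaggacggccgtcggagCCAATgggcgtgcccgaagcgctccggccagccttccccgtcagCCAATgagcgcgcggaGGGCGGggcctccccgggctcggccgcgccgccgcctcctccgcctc
MIR17HG, chr13:91347537-91347686, plus strand: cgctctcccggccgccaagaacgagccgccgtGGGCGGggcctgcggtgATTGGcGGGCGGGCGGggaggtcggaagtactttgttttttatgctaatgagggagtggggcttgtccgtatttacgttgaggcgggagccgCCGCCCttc
MIRLET7A1HG, chr9:94166108-94166257, plus strand: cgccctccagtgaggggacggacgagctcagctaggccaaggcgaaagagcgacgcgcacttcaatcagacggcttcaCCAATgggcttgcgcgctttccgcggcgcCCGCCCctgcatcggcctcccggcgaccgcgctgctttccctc
LINC02987, chr19:27793281-27793430, plus strand: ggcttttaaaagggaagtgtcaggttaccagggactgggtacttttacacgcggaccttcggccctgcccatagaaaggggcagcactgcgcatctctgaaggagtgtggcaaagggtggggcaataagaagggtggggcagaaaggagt
RGMB, a co-receptor for bone morphogenetic proteins, had 2 CCAAT matches and 2 GGGCGG matches. DCUN1D4, a factor in cullin neddylation, had 1 and 3, and ZMYM2, a zinc-finger transcriptional regulator, had 2 and 1. MIR17HG, the host transcript of the miR-17 to miR-92a cluster, had 1 CCAAT match and 4 GGGCGG matches, and MIRLET7A1HG, which hosts let-7a-1, had 1 of each. LINC02987 had none of the motifs in this stretch, and its GC content was 55.3%, against 65.3% to 78.0% in the other 5. The printed starts do not stand for all starts of this size. Of those not printed, CPNE8 and SCAF11 had no match. RBPJ and KCNN2 had 1 CCAAT match and no GGGCGG match, and CAST had 1 and 2. Among lncRNA starts not printed, FGF14-AS2 had no match and SKOR1-AS1 only a TEAD match. LOC124901028, LINC01003 and LOC105376031 had both CCAAT and GGGCGG matches.

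A second set shows some of the inner starts under members at genes of the lists used below. All such members stood away from the outermost gene ends, so this did not single out the genes shown.
PHF19, chr9:120877189-120877338, minus strand: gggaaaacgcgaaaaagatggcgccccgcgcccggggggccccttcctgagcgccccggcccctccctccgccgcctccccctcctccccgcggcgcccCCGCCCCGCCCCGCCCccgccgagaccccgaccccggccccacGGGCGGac
NFIL3, chr9:91423833-91423982, minus strand: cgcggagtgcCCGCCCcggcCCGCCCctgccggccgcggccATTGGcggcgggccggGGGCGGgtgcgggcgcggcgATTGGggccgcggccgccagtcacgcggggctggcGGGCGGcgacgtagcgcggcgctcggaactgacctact
JARID2, chr6:15248705-15248854, plus strand: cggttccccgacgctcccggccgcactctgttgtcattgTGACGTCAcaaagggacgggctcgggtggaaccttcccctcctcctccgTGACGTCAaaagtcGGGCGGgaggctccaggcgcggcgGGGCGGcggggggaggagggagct
CREM, chr10:35195752-35195901, plus strand: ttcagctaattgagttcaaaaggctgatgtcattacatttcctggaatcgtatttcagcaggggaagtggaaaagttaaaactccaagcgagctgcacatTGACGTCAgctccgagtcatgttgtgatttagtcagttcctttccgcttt
LIPE, chr19:42423586-42423735, minus strand: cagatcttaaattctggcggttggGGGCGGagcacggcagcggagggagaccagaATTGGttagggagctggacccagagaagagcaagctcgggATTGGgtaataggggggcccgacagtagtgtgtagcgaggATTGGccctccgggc
PCNA, chr20:5119959-5120108, minus strand: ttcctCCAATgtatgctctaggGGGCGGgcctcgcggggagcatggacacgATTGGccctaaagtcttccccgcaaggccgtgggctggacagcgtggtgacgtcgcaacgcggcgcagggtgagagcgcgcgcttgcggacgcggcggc
PDE4B, chr1:66331958-66332107, plus strand: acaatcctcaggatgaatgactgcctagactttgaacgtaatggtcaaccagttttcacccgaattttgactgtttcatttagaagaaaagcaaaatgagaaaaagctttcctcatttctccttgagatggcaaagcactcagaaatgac
PHF19, an accessory subunit of Polycomb repressive complex 2, had 4 GGGCGG matches and a GC content of 83.3%. NFIL3, a basic leucine-zipper repressor, had 2 CCAAT and 4 GGGCGG matches. JARID2, another accessory subunit of that complex, carried 2 copies of the full cAMP response element TGACGTCA. CREM, a cAMP-responsive transcription factor gene, carried 1 copy, under a member whose summit lay 16794 bp from the nearest end of a protein-coding gene, in a stretch of 42.7% GC. LIPE, hormone-sensitive lipase, had 3 CCAAT matches and PCNA, the sliding clamp of DNA replication, had 2. PDE4B, a cAMP phosphodiesterase, had no match and a GC content of 38.7%. Starts of PRKAR1A, CDK6, NR4A1, PAX2, PAX6, AFF3 and TCF7L2, not printed, had no match either, while others not printed, such as SGK1, had GGGCGG matches. A match describes these letters and is not a binding site.

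Members were larger than the distal peaks that were not kept, a property tied to the rule, since peaks enter a list by a threshold, and given as a description. The authors' area of significance under the peak had a median of 923.4 in members (quartiles 602.5 and 1527) and 335.0 in other distal peaks (256.2 and 469.0). Median width was 649 bp in members and 384 bp in the others, and the median −log10 p at the summit was 5.325 in members and 3.920 in the others. The larger-area 50% of the whole vehicle list held 76.92% of members and 13.83% of other distal peaks. For comparison, the 11104 kept peaks at gene ends, 88.7% of the 12525 gene-end peaks, had a median area of 2326.

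Across deciles of distal vehicle peaks by area, the share kept in all 3 lists went up at every step, with 4.392% in the smallest decile, 27.10% in decile 5, 60.40% in decile 7 and 99.32% in the largest. In the largest decile 4816 of 4849 peaks were members, so only 33 were not. The EZH2i list covered 54.7% of distal vehicle peaks, the CBPi list 62.6% and the FSK list 64.0%, against 62.3%, 69.4% and 69.8% of all vehicle peaks, gene ends included. In the smallest decile these shares were 12.43% for EZH2i, 21.96% for CBPi and 23.90% for FSK. The EZH2i list was also the shortest. When all 4 lists, vehicle included, were reduced to 41086 peaks of largest area, 58.2% of the distal vehicle peaks left were kept. That share is over a smaller set without the smallest vehicle peaks, so it cannot be set directly against 43.3%. Because area moves with membership, many shares below are set beside an area-matched share, which is the share of members among all distal vehicle peaks with the same mix of area deciles.

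**Figure D1:**
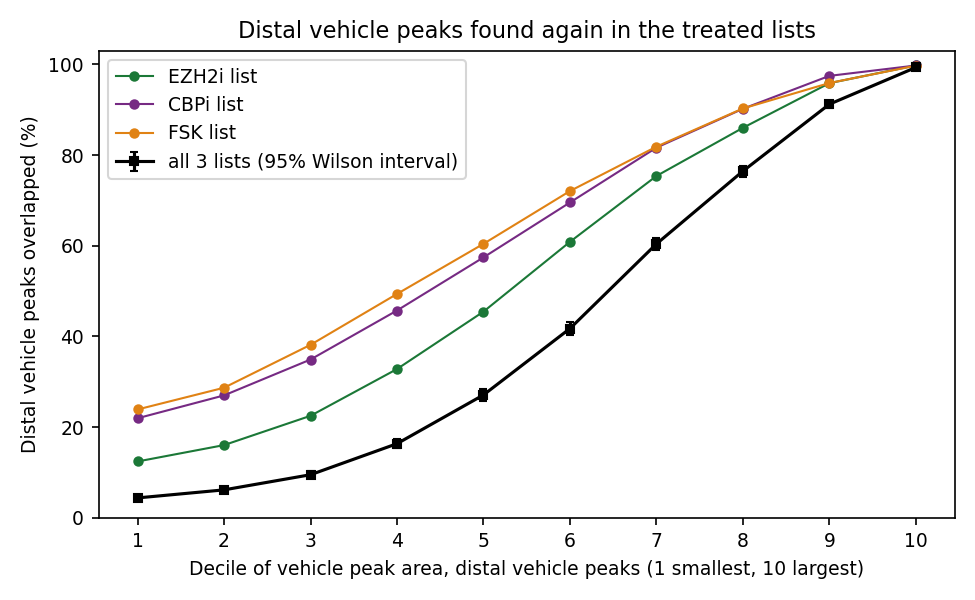
Share of distal vehicle peaks overlapped in the EZH2i, CBPi and FSK lists and in all 3 (black, bars 95% Wilson intervals), by decile of vehicle peak area. The black line runs from 4.392% in the smallest decile to 99.32% in the largest, and the EZH2i line lies below the other lists up to decile 9.

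Values next to the 1 kb limit were as follows, with no test. Just inside it, peaks 1001 bp from an end of GPR153 (chr1:6259889-6261395) and of EP300 (chr22:41091236-41092041), the gene of the p300 acetyltransferase, were members with areas of 1673 and 864.8. Just outside it, peaks 1000 bp from an end of PTPRN (chr2:219308217-219309089) and of GRIA1 (chr5:153490494-153490962) were excluded, with areas of 900.8 and 334.9. The shortest overlaps that made a member were 18 bp, inside ADCY1 on chromosome 7 in the CBPi list and inside EEIG1 on chromosome 9 in the FSK list. Under 50% of the member was covered in 7.903% of members in the EZH2i list, 5.272% in the CBPi list and 6.588% in the FSK list. With 50% or more required in all 3 lists, 18050 of the 20979 members would remain.

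Positions were close, a property tied to the rule, which required an overlap in every treated list, and given as a description. The median member was covered over 84.99% of its width in the EZH2i list, 91.10% in the CBPi list and 87.71% in the FSK list. The treated summit lay a median of 17 bp from the vehicle summit in the EZH2i and CBPi lists and 19 bp in the FSK list. Across all 4 lists the range of the summits had a median of 53 bp, and it was at most 100 bp for 76.30% of members. Treated peaks were often narrower than the vehicle peak, in 75.21% of members for EZH2i, 61.49% for CBPi and 67.57% for FSK. Their median widths were 530 bp in the EZH2i list, 605 bp in the CBPi list and 566 bp in the FSK list, against 649 bp in the vehicle list. More than 1 treated peak overlapped 369 members in the EZH2i list, 292 in the CBPi list and 453 in the FSK list. For these members summit, width and area, and so the ranks below, are those of the overlapping peak of largest area. Coverage counts all overlapping peaks.

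Areas of different lists cannot be set against each other, because depth is unknown, so each member was ranked among the same 20979 members in each list, with rank 1 the largest. Area ranks followed those of vehicle with a Spearman coefficient over members of 0.775 for EZH2i, 0.735 for CBPi and 0.735 for FSK. These are descriptions across peaks that share libraries and, in part, a threshold. Of the 2097 members in the top decile of the vehicle list, 1656 were also in the top decile with EZH2i, 1593 with CBPi and 1651 with FSK, and 1358 (64.76%) were in the top decile of all 4. A member in the vehicle list's top quartile group fell in the lowest one in 49 cases for EZH2i, 44 for CBPi and 61 for FSK. The opposite move, from the lowest vehicle quartile group into the top one, was seen for 188 members with EZH2i, 180 with CBPi and 210 with FSK. Most of these lay under a treated peak that also covered another vehicle peak, namely 146 for EZH2i, 153 for CBPi and 120 for FSK, so their rank is that of a joined peak. Joined peaks covered 2.33% of members in the EZH2i list, 3.07% in the CBPi list and 2.29% in the FSK list.

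**Figure D2:**
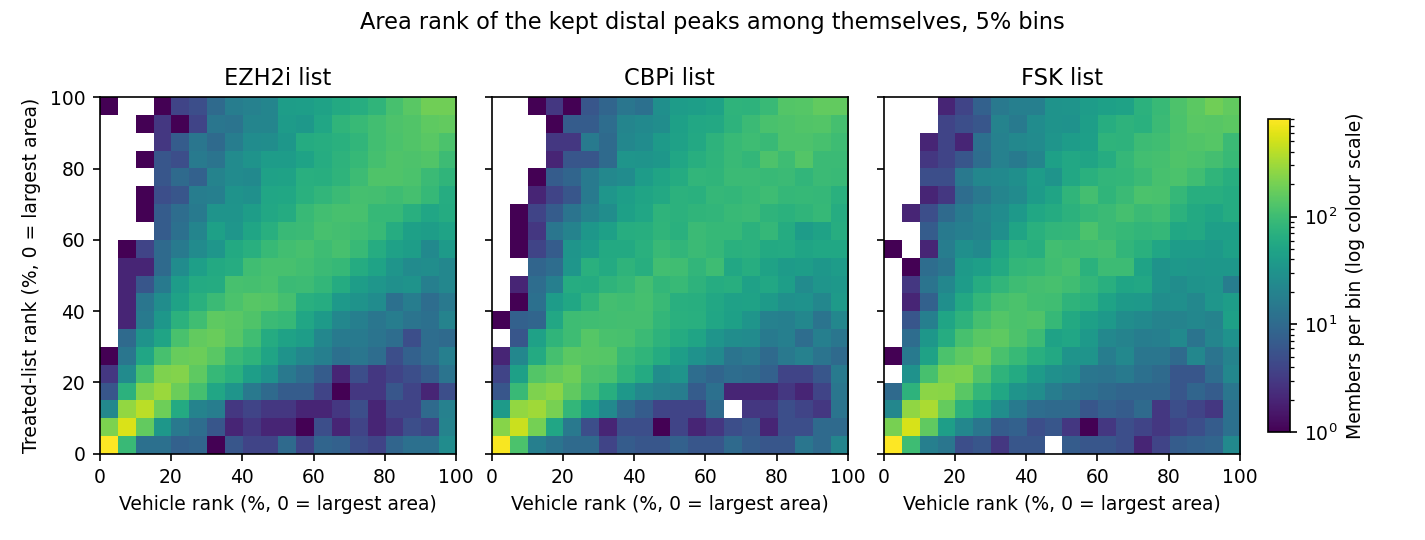
Area rank of the 20979 members in each treated list (vertical) against vehicle (horizontal), as a percent of members with 0 the largest, in 5% bins with a log colour scale and empty bins white. Members crowd along the diagonal and most densely among the largest peaks. A thin row at the bottom right holds members small in vehicle but among the largest in the treated list. How many of that row lay under joined treated peaks was not counted.

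The members of largest vehicle area are described by their values in each list. The peak of largest vehicle area, chr13:110712013-110716514, lay inside ING1, a chromatin reader, and 2183 bp from an end of CARS2. Its area was 13378 in the EZH2i list, 16696 in the CBPi list, 13151 in the FSK list and 16310 in the vehicle list, which are ranks 16, 2, 7 and 1. SIN3A, the scaffold of a histone deacetylase corepressor, held a 6218 bp member (chr15:75450225-75456442) with ranks 15 in EZH2i, 1 in CBPi, 6 in FSK and 3 in vehicle. Both lay within 1 kb of an inner RefSeq start of a protein-coding gene.

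Other members of this size had no RefSeq start within 1 kb. The widest member of all, 7748 bp inside NR2F2 (chr15:96329876-96337623), lay in the gene of the nuclear receptor COUP-TFII. Its ranks were 100 in EZH2i, 6 in CBPi, 75 in FSK and 2 in vehicle, and 83.4% of its width was covered in EZH2i, 98.9% in CBPi and 91.3% in FSK. More than 1 peak lay over it in EZH2i and in FSK, and the ranks there are those of peaks of 3049 bp and 3054 bp. ZNF462, a zinc-finger gene, held a peak of 5147 bp (chr9:106859985-106865131) with ranks 26 in EZH2i, 17 in CBPi, 38 in FSK and 4 in vehicle. A 4896 bp member stood 1679 bp from EFNA5, an ephrin ligand gene (chr5:107669184-107674079), at ranks 27, 20, 10 and 5 in the same order of lists. GLI3, a transcription factor of Hedgehog signalling, held a 2901 bp intragenic peak 26990 bp from its nearest end (chr7:42235616-42238516), with ranks of 19 in EZH2i, 18 in CBPi, 13 in FSK and 6 in vehicle. All 4 were thus among the 100 largest members in every list. A further wide peak, 5053 bp near TRIM8 (chr10:102641917-102646969), ranked 571 in EZH2i, 68 in CBPi, 584 in FSK and 197 in vehicle. It too lay under more than 1 peak in EZH2i and in FSK, and its ranks there are those of peaks of 3553 bp and 3686 bp.

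Some members of high vehicle rank were in the lowest quartile group of members by area in a treated list. With EZH2i, a 4365 bp peak 86206 bp from ASB1 (chr2:238535342-238539706) had rank 20526, against 806 with CBPi, 24 with FSK and 766 with vehicle. A member inside MB21D2 ranked 17356 with EZH2i and 5576 with CBPi, 3022 with FSK and 3158 with vehicle. More than 1 EZH2i peak lay over the MB21D2 member, covering 808 bp, and its EZH2i rank is that of a 543 bp peak. With FSK, an intragenic peak of NKD1, a Wnt feedback inhibitor gene (chr16:50616557-50617835), ranked 16632, against 1908 with EZH2i, 1931 with CBPi and 2613 with vehicle. A peak 9594 bp from LEP, the leptin gene, ranked 15822 with FSK, against 1995 with EZH2i, 1814 with CBPi and 2311 with vehicle. Another inside LRMDA ranked 18184 with FSK, against 2037 with EZH2i, 1696 with CBPi and 2273 with vehicle. More than 1 FSK peak lay over this member, covering 795 bp, and the rank is that of a 305 bp peak. All 5 members were still covered by 1 or more peaks in each treated list, as the rule requires.

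Membership was more frequent at RefSeq starts, a feature the rule did not use. The comparison was added after values were seen, and chromosome 8 was not used in it. Of 1804 distal peaks within 1 kb of an inner start of a protein-coding gene, 1519 were members (84.20%, 82.45 to 85.81), with an area-matched share of 77.43%. Of 1418 distal peaks near the start of an lncRNA only, 980 were members (69.11%, 66.66 to 71.46), with an area-matched share of 61.02%. Of the 43334 peaks with neither, 17750 were members (40.96%, 40.50 to 41.42), with an area-matched share of 41.37%. Averaged over area deciles with equal weight, the share was 56.4% at inner coding starts and 52.7% at lncRNA starts, against 42.9% with neither, and both were higher in 10 of 10 deciles. Starts were found for 12.34% of members and 2.748% of other distal peaks, so most members have no start in this table. Members at inner coding starts had a median area of 2113 and a median width of 1174 bp, against 876.9 and 621 bp for members with no start.

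**Figure D3:**
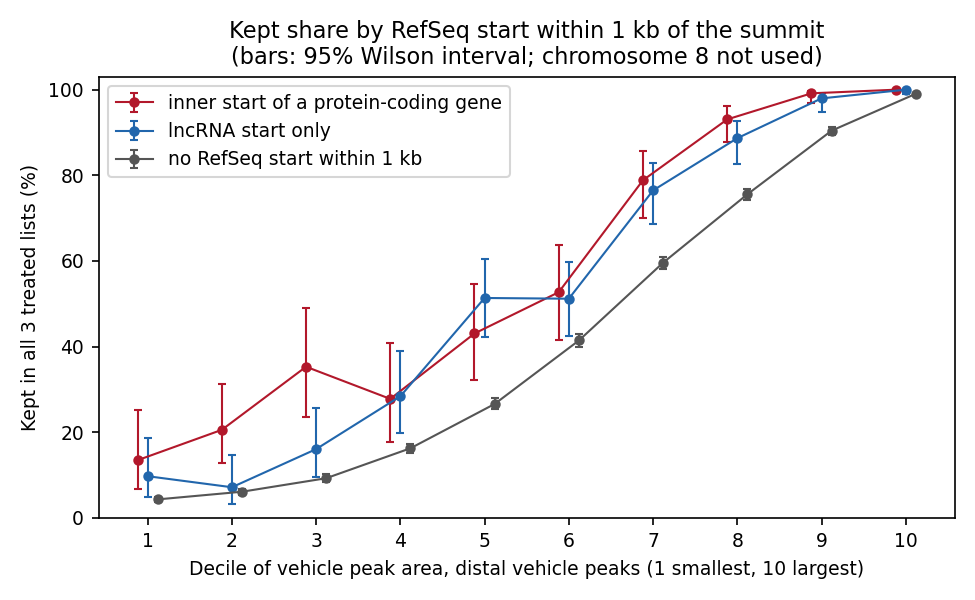
Share of distal vehicle peaks kept in all 3 treated lists, by decile of vehicle area, for peaks within 1 kb of an inner start of a protein-coding gene (red), of an lncRNA start only (blue) and of neither (grey), with 95% Wilson intervals. Both start classes lie above the grey line in each decile, reaching 100.0% in the largest against 99.05%.

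Ranks were also steadier at starts. Over members at inner coding starts the Spearman coefficient between treated and vehicle area was 0.911 for EZH2i, 0.890 for CBPi and 0.909 for FSK. Over members with no start it was 0.739 for EZH2i, 0.695 for CBPi and 0.692 for FSK. The classes differ in area, and what part of the difference goes with area was not tested. None of the 5 members named above for a high vehicle rank and a place in the lowest treated quartile group had a RefSeq start within 1 kb. Neither did 87.66% of all members outside chromosome 8, so these 5 do not set such members apart.

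The largest member peaks whose summit lay in the window before an inner start came from genes of several kinds. RGMB (chr5:98772480-98774977) had areas of 8486 in the EZH2i list, 9248 in CBPi, 10034 in FSK and 11762 in vehicle, at ranks 31, 36, 12 and 8. DCUN1D4 (chr4:51842135-51845233) ranked 28 in EZH2i, 26 in CBPi, 86 in FSK and 10 in vehicle. RBPJ, the DNA-binding factor of Notch signalling, held a peak at a start 214297 bp inside its annotated span (chr4:26318835-26322316), with ranks 53 in EZH2i, 22 in CBPi, 33 in FSK and 13 in vehicle. KCNN2, a small-conductance potassium channel gene, had its peak at a start 306092 bp from the annotated one, at ranks 38 in EZH2i, 55 in CBPi, 32 in FSK and 25 in vehicle. CAST, which encodes the calpain inhibitor calpastatin, had one 701596 bp from the annotated start, at ranks 76, 87, 70 and 32 in the same order. CPNE8, SCAF11 and ZMYM2 completed this group, and every one of the 8 was among the 100 largest members in all 4 lists.

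Among lncRNA starts the largest member was at MIR17HG (chr13:91346958-91349474), 51092 bp from the nearest coding gene end, with areas of 8553 in EZH2i, 9145 in CBPi, 9637 in FSK and 11419 in vehicle. Its summit was at the same base in all 4 lists, and its ranks were 30 in EZH2i, 41 in CBPi, 17 in FSK and 11 in vehicle. MIRLET7A1HG ranked 137 in EZH2i, 105 in CBPi, 152 in FSK and 107 in vehicle. LINC02987, on chromosome 19 and 1411932 bp from the nearest coding gene end, ranked 139 in EZH2i, 165 in CBPi, 76 in FSK and 87 in vehicle. Ranks were spread further at SKOR1-AS1, at 367 in EZH2i, 130 in CBPi, 1296 in FSK and 110 in vehicle.

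Promoter windows of 300 bases (250 before the start and 50 after) were compared by class, over 3212 windows at members, 721 at other distal peaks, 13764 at gene-end peaks and 17092 with no vehicle peak summit within 1 kb. Median GC content was 64.0% at members and 49.3% at other distal peaks, beside 66.3% at gene-end peaks and 49.0% where no peak was called. The SP/KLF box GGGCGG was found in 59.8% of windows at members and 24.3% at other distal peaks, and in 44.9% of all 34789 windows. The difference was 35.5 points, and it was 20.1 points averaged over area deciles. The box moves with GC content, and the 2 were not separated. The NFY letters CCAAT were about as frequent in both, at 32.8% at members and 31.9% at others (34.6% of all windows).

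AT-rich letters ran the other way, and they too move with GC content. The GATA letters AGATAA were found in 6.32% of windows at members, 13.5% at other distal peaks, 4.37% at gene-end peaks and 15.8% where no peak was called (10.4% of all windows). TEAD letters CATTCCA were in 3.18% at members, 6.52% at other distal peaks, 2.08% at gene-end peaks and 5.99% with no peak (4.19% of all), and TCF/LEF letters ATCAAAG in 2.21% at members and 4.16% at other distal peaks (2.64% of all). Members thus lay between gene-end peaks and windows with no peak for GATA and TEAD letters, and the pattern is not particular to them. The SF1 letters CAAGGTCA, bound by the product of NR5A1, were in 1.37% at members and 2.08% at others (1.29% of all). The full cAMP element TGACGTCA was in 2.58% at members and 1.39% at others (1.84% of all), a difference of 1.20 points that was −0.00538 points averaged over area deciles. AP-1 letters TGACTCA or TGAGTCA were in 5.57% at members and 7.63% at others (4.93% of all), a difference of −2.06 points that was 4.74 points averaged over area deciles. The E-box CAGCTG was in 19.5% and 19.4% (17.9% of all), and a CTCF consensus in 2.33% and 0.971% (1.30% of all). All motifs were searched on both strands, and neighbouring matches can share bases.

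Among the other non-coding gene types, transcribed pseudogenes and microRNA genes had intervals clear of the area-matched share. Distal peaks within 1 kb of an end of a transcribed pseudogene were members in 198 of 255 cases (77.65%, 72.14 to 82.33), with an area-matched share of 67.75%. Near an end of a microRNA gene 98 of 135 were members (72.59%, 64.52 to 79.41, area-matched 60.76%). Those near a tRNA gene were members in 91 of 135 (67.41%, 59.11 to 74.74, area-matched 61.56%) and near a spliceosomal or other small nuclear RNA gene in 32 of 47 (68.09%, 53.83 to 79.60, area-matched 63.41%). Peaks near a plain pseudogene were members in 272 of 622 cases (43.73%), beside 44.14% by area, and those near a snoRNA gene in 15 of 35 (42.86%), beside 44.13%.

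MicroRNA genes are a small class whose product is known to the base. A distal vehicle peak covered an annotated hairpin in 63 cases, and 56 of these were members (88.9%, 78.8 to 94.5), with an area-matched share of 78.4%. They held 58 hairpins of the 1562 in the table. Mature sequences of some of them are shown from RefSeq, with the seed (bases 2 to 8) in capitals, because the seed sets which transcripts a microRNA pairs with.
hsa-let-7i-5p: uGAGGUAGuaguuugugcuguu
hsa-miR-130b-3p: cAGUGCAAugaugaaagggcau
hsa-miR-132-3p: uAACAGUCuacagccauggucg
hsa-miR-212-3p: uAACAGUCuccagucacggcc
hsa-miR-145-5p: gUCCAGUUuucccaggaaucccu
hsa-miR-185-5p: uGGAGAGAaaggcaguuccuga
hsa-miR-132-3p and hsa-miR-212-3p share the seed AACAGUC and lay under 1 member (chr17:2049512-2050655), with ranks of 2475 in EZH2i, 1652 in CBPi, 2927 in FSK and 3844 in vehicle. The member over MIRLET7I (chr12:62602276-62604240) ranked 195 in EZH2i, 163 in CBPi, 144 in FSK and 125 in vehicle. MIR130B lay under a member on chromosome 22 with ranks 368 in EZH2i, 405 in CBPi, 420 in FSK and 459 in vehicle. MIR145 (chr5:149430289-149431573), whose product is abundant in smooth muscle, had ranks far apart, at 19260 in EZH2i, 4844 in CBPi, 13686 in FSK and 6496 in vehicle. MIR185 ranked 19032 in EZH2i, 11831 in CBPi, 10242 in FSK and 8111 in vehicle. The member over MIR4649 ranked 11 in EZH2i, 10 in CBPi, 14 in FSK and 3859 in vehicle, and its treated peak joined 5 other vehicle peaks in EZH2i, 4 in CBPi and 3 in FSK.

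Members lay nearer to genes than the other distal peaks. The median distance to a gene end was 29383 bp for members and 48190 bp for the others. The share of distal peaks that were members was 54.13% at 1 to 5 kb from an end, 50.73% at 5 to 10 kb, 44.99% at 10 to 50 kb, 41.76% at 50 to 100 kb, 35.64% at 100 to 500 kb and 30.37% beyond, with no area matching. Averaged over area deciles, 28.6% of members and 17.2% of others lay within 10 kb of an end, and members were ahead in 10 of 10 deciles. Summits inside a protein-coding gene made up 50.62% of members and 47.45% of others. That difference of 3.17 points was 0.686 points (−0.250 to 1.62) with peaks within 1 kb of a RefSeq start left out. All chromosome 8 peaks stayed in, since they were not classed by start.

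Membership also ran in neighbours. Another distal vehicle summit stood within 10 kb of 46.89% of members and 39.60% of the others. Where the nearest such neighbour was a member, 51.41% of peaks were members, against 43.87% where it was not, and averaged over area deciles the shares were 48.7% and 41.9%, in the same order in 10 of 10 deciles. Of all members, 15432 stood alone and 5547 formed 2407 runs in which each was within 10 kb of the next with no unkept distal peak between them. Only 50 runs had 5 members or more. Some neighbours were kept by the same treated peak, which 346 members shared with another member in the EZH2i list, 393 in CBPi and 311 in FSK. With reciprocal overlap of at least 50%, the 7.29-point difference in having a neighbour was 3.89 points. What part of the runs goes with shared peaks was not tested.

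Long runs gathered on chromosome 7. The longest, chr7:44217476-44261128, had 15 members inside CAMK2B, a calcium/calmodulin kinase gene, and a second run of 10 followed in the same gene (chr7:44270178-44288507). IKZF1, a lymphoid transcription factor gene, held a run of 10 (chr7:50333302-50383830), and ADCY1, a calcium-stimulated adenylyl cyclase gene, a run of 9 (chr7:45579018-45592727). A run on another chromosome had 7 members near ANXA2R (chr5:42992092-43020755).

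By nearest gene within 100 kb, 16104 of 34425 assigned distal peaks were members (46.78%), spread over 8074 of 11515 genes with a distal peak. All 32 distal peaks assigned to CAMK2B were members, where 15.3 would follow from their areas. COBL, an actin nucleator gene, had 36 of 67 (23.6 by area), GRB10, an insulin receptor adaptor gene, 30 of 57 (20.4), ADCY1 28 of 36 (11.3), TNS3 26 of 44 (22.4), IKZF1 22 of 35 (13.5) and RAMP3 21 of 27 (11.4). These 7 genes lie between 44 and 52 Mb of chromosome 7. The other genes of the 10 with most members were RGS3 with 24 of 31 (21.0 by area) and DAB2IP with 20 of 28 (17.3) on chromosome 9, and RASA3, a Ras GTPase activator gene, with 24 of 27 (13.1) on chromosome 13.

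Chromosomes 19 and 22 had the highest shares of members. Chromosome 19 had 554 of 862 (64.27%, 61.01 to 67.40), with an area-matched share of 48.95%, and chromosome 22 had 276 of 493 (55.98%, 51.57 to 60.30), area-matched 41.73%. Chromosome 17 followed by excess, with 46.75% against 40.48% by area. In the CBPi list alone 87.01% of distal peaks on chromosome 19 and 84.38% on chromosome 22 were covered, where the EZH2i list covered 73.32% and 67.14% and the FSK list 75.99% and 68.76%. The lowest shares were 37.54% on X, 37.73% on 8 and 37.93% on 2, with area-matched shares of 38.63%, 40.89% and 40.90%.

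**Figure D4:**
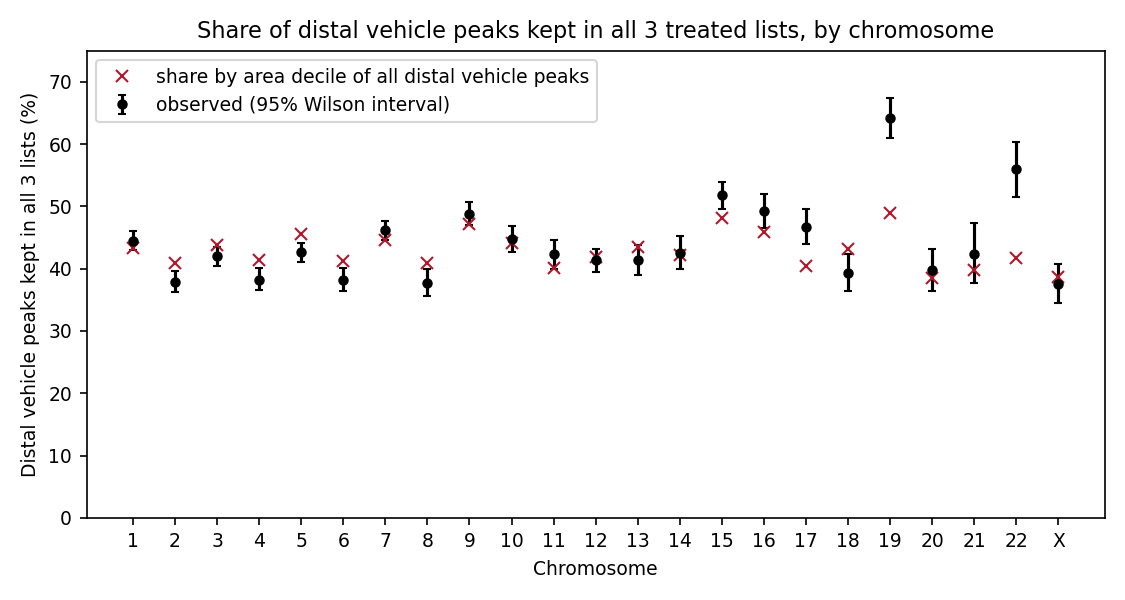
Percent of distal vehicle peaks kept in all 3 treated lists on each chromosome (black, 95% Wilson intervals) beside the area-matched share (red crosses). Chromosomes 19 (64.27%) and 22 (55.98%) stand well above their crosses at 48.95% and 41.73%.

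Gene-rich windows showed the same order. In windows of 5 Mb ordered by protein-coding genes in 5 equal groups, members were 36.56% of distal peaks in the poorest, then 39.83%, 40.45%, 46.01% and 52.34% in the richest. The area-matched shares moved less, with 42.08% in the poorest and 45.31% in the richest. Among 540 windows with 30 or more distal peaks the median was 41.0%. The highest were chromosome 19 at 50 to 55 Mb (46 of 61, 75.4%, area-matched 54.9%), chromosome 16 at 30 to 35 Mb (27 of 36, area-matched 57.9%), chromosome 19 at 55 to 60 Mb (36 of 49, 73.5%, area-matched 57.3%) and chromosome 9 at 135 to 140 Mb (59 of 81, 72.8%, area-matched 44.3%). The lowest were chromosome 4 at 170 to 175 Mb (6 of 36, 16.7%, area-matched 34.4%), chromosome 2 at 200 to 205 Mb (5 of 30, 16.7%, area-matched 22.6%), chromosome 20 at 5 to 10 Mb (12 of 61, 19.7%, area-matched 30.3%) and X at 10 to 15 Mb (9 of 45, area-matched 27.9%).

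Members near adrenal genes were checked against the labelled cell type, using lists of marker and pathway genes. Among 17 steroidogenic genes 15 had a distal peak and 13 a member, in all 30 of 60 distal peaks (50.0%, 37.7 to 62.3), with an area-matched share of 48.8%. The 12 adrenal regulators kept 26 of 43 (60.5%, 45.6 to 73.6, area-matched 52.8%). Both intervals include 46.78%, the share over all assigned peaks. Chromaffin markers of the adrenal medulla had 1 member among 8 distal peaks (12.5%, area-matched 32.7%), at SYP, and none at TH. The fibroblast list had 8 members of 19 (42.1%, area-matched 38.3%), the endothelial list 12 of 26 (46.2%, area-matched 35.6%) and the immune list 4 of 7 (57.1%, area-matched 35.7%), so distal peaks near markers of other cell types were kept as well.

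The side-chain cleavage enzyme gene CYP11A1, which starts steroid synthesis, kept 3 of 5 distal peaks. The largest, 6171 bp from its end (chr15:74373465-74375042), had areas of 3569 in EZH2i, 4321 in CBPi, 3710 in FSK and 4643 in vehicle, at ranks 524, 627, 542 and 470. SCARB1, the receptor for HDL cholesterol, had 10 of 22, and its largest member (chr12:124837800-124839471) ranked 637 in EZH2i, 751 in CBPi, 1684 in FSK and 939 in vehicle. POR, the electron donor of microsomal P450 enzymes, kept 4 of 4, and FDXR, which supplies electrons to mitochondrial ones, kept 3 of 4. SULT2A1, which sulfates DHEA, had 1 member with ranks of 5062 in EZH2i, 3830 in CBPi, 15230 in FSK and 6189 in vehicle. MRAP, the accessory protein of the ACTH receptor, had 1 member at 12387 in EZH2i, 6162 in CBPi, 10384 in FSK and 4048 in vehicle. CYP17A1 (17α-hydroxylase) and HSD3B2 (3β-hydroxysteroid dehydrogenase) had 1 member each, with areas of 892.3 and 815.8 in the vehicle list.

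NR5A1 encodes SF1, the main transcription factor of steroidogenic cells, and kept 2 of 2 distal peaks. The larger, inside the gene (chr9:124504099-124505557), ranked 2981 in EZH2i, 5055 in CBPi, 9238 in FSK and 7136 in vehicle. NR2F2 kept 5 of 10. NR2F1, the relative of NR2F2, had 2 members within 1 kb of lncRNA starts, the larger (chr5:93582705-93585858) at ranks 295 in EZH2i, 485 in CBPi, 197 in FSK and 57 in vehicle. The member at GATA6 ranked 422 in EZH2i, 448 in CBPi, 751 in FSK and 19774 in vehicle, and in each treated list the peak over it joined another vehicle peak.

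cAMP-responsive and AP-1 genes kept 49 of 84 distal peaks (58.3%, 47.7 to 68.3, area-matched 53.5%), and 18 of 19 genes with a distal peak had a member. The difference of 11.6 points from all assigned peaks had an interval of 0.873 to 21.5, which included 0 with distal set beyond 5 kb (7.49, −5.01 to 19.7), beyond 10 kb (5.02, −8.39 to 18.6), away from genes of any type (7.95, −3.93 to 19.5) and with lists of equal length (11.3, −1.56 to 21.1). Averaged over area deciles it was 2.88 points. NR4A1, an orphan receptor gene induced by ACTH, kept 7 of 8. Its largest member (chr12:52050168-52053034) ranked 254 in EZH2i, 206 in CBPi, 259 in FSK and 269 in vehicle. ATF3 kept 4 of 4, with its largest member (chr1:212607683-212609939) at 190 in EZH2i, 177 in CBPi, 282 in FSK and 249 in vehicle. At both genes some members lay under joined peaks in all 3 treated lists. These members start at chr12:52043226 and chr12:52043937 for NR4A1 and at chr1:212566548 and chr1:212567081 for ATF3. DUSP1, a MAP kinase phosphatase gene, kept 4 of 5 and JUN 4 of 6. The immediate early gene FOS kept 3 of 3.

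Wnt target genes kept 46 of 93 (49.5%, 39.5 to 59.4, area-matched 52.8%). TCF7L2, a TCF factor gene, kept 6 of 6, and an intragenic member (chr10:113099393-113100174) ranked 9976 in EZH2i, 8172 in CBPi, 18020 in FSK and 6461 in vehicle. NKD1 kept 5 of 11 and ZNRF3, a ligase that removes Wnt receptors, 5 of 13. At both genes the FSK list covered 5 distal peaks, where the EZH2i list covered 8 at NKD1 and 10 at ZNRF3 and the CBPi list 9 and 11. For these genes the FSK list therefore set the number of members. A ZNRF3 member (chr22:28917717-28918910) ranked 4540 in EZH2i, 5940 in CBPi, 16936 in FSK and 6226 in vehicle.

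Cholesterol supply genes kept 32 of 61 (52.5%, 40.2 to 64.5, area-matched 47.2%). INSIG1, which holds back SREBP processing, kept 9 of 14, and its largest member (chr7:155297021-155299913) ranked 97 in EZH2i, 93 in CBPi, 92 in FSK and 34 in vehicle. LIPE kept 4 of 4 and ABCG1 4 of 6. The LIPE members that start at chr19:42422785 and chr19:42424471 lay under joined peaks in all 3 treated lists. In the IGF list 36 of 77 were members (46.8%, area-matched 49.4%), with IGFBP3 at 9 of 13 and IGF1R at 8 of 14. Polycomb and coactivator genes kept 29 of 61 (47.5%, area-matched 50.2%). PHF19 kept 3 of 4, and the member at its printed start (chr9:120875448-120877929) ranked 148 in EZH2i, 148 in CBPi, 124 in FSK and 113 in vehicle. EED, a core subunit of the complex, kept 4 of 4, and AEBP2, an accessory one, 6 of 18. Developmental transcription factors kept 62 of 127 (48.8%, area-matched 45.5%), with MEIS2 at 9 of 18, PAX2 and LHX2 at 6 of 8 each and TBX3 at 5 of 14. Cell cycle genes kept 21 of 38 (55.3%, area-matched 54.4%), among them a member near CCNE1 (chr19:29844190-29846004) at 241 in EZH2i, 215 in CBPi, 221 in FSK and 201 in vehicle. Housekeeping genes kept 19 of 35 (54.3%, 38.2 to 69.5, area-matched 43.1%).

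**Figure D5:**
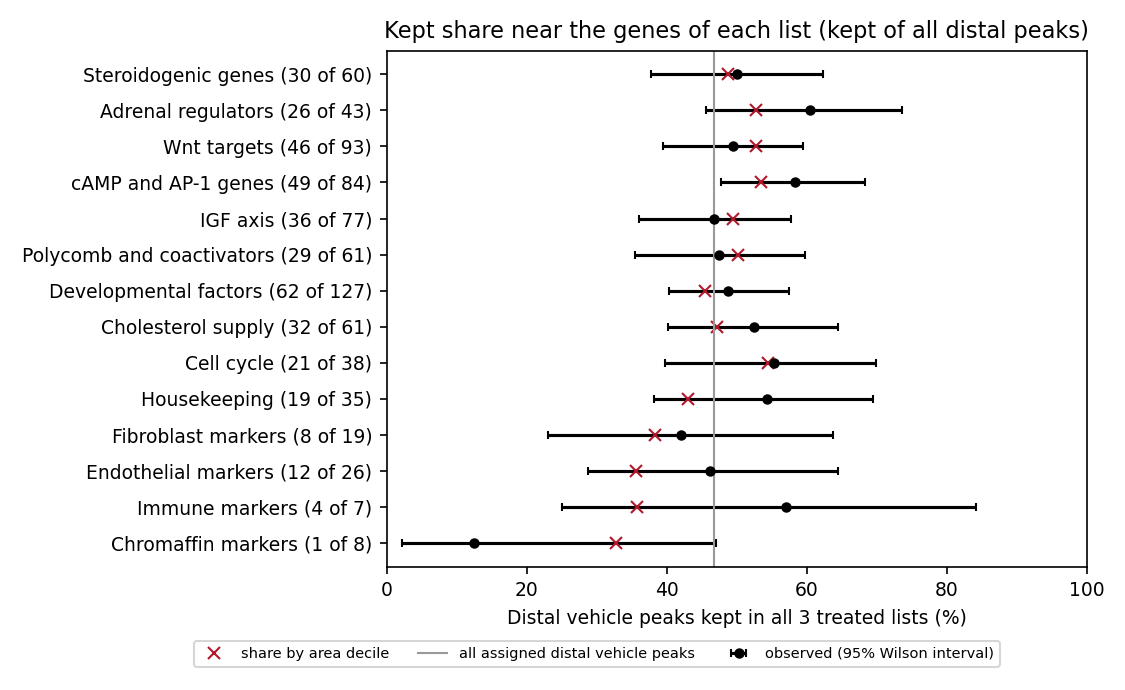
Percent of the distal vehicle peaks assigned to each gene list that were kept in all 3 treated lists (black, 95% Wilson intervals), with the area-matched share (red crosses) and the share over all assigned distal peaks (grey line, 46.78%). The intervals reach the grey line except that of the cAMP and AP-1 list (47.7 to 68.3), which does so under 4 of the alternative settings.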

How the data were processed

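Open chromatin was measured by ATAC-seq in 8 libraries of NCI-H295R cells, 2 per group, and 1 peak list per group was deposited. Per the submitters' processing notes the tools were Bowtie2, Genrich and deepTools 2.0 with build hg38; the sources used here do not give their roles or settings. How the authors combined the 2 libraries of a group is not stated either. In the lists deposited by the authors each peak has a signal (area of significance under the peak, smallest value 200.0), a score (area over width, capped) that was not used further, a −log10 p at the summit, and a summit offset in bp. The areas were used only within a list, and the members and gene lists were chosen with earlier results of these data known.

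Overlaps, distances to RefSeq gene ends (GRCh38.p14), ranks and Wilson intervals (95%) were computed with python 3.11.15, numpy 2.4.6, pandas 2.3.3 and scipy 1.17.1, and the procedure was checked on simulated data. Each peak was linked to the coding gene whose end was closest, up to 100 kb away. Named peaks were those of largest vehicle area, widest, nearest the distance limit, of shortest overlap, in the longest runs, and of high vehicle rank in the lowest treated quartile group; named genes were the 10 with most members and up to 4 per list, and other list genes were named after their values were seen; some items that this rule selects are not reported here. All list genes matched the annotation. No genome was used, so motifs were searched in RefSeq promoter windows of 300 bases in place of windows at summits, and chromosome 8 of the promoter and microRNA tables was not used here. Alternatives changed the overlap, the distance, the list length and the area mix.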

Additional observations from a re-analysis of the deposited data

How the results depend on the processing

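No paired analysis was possible because each list joins both libraries of its group, and for the same reason no replicate could be left out. Motif windows at summits, and wider ones, were not run, since no genome was used. The comparison by RefSeq start and the setting without such peaks were chosen after seeing the data. As reported, 43.3% of distal peaks were members; the differences between members and other distal peaks were 3.17 points for inside a gene and 7.29 for a neighbour within 10 kb, and the difference in member share by RefSeq start was 36.6 points. With 50% of the vehicle peak covered, 37.2% were members. With reciprocal overlap the values were 34.2%, 1.99, 3.89 and 34.2 points. With distal set beyond 5 kb they were 41.6%, 2.04 and 6.16 points, and beyond 10 kb 40.5%, 1.84 and 6.33 points. Away from genes of any type they were 41.7% and 4.31 points for inside a gene. With lists of equal length, a setting that also drops the smallest vehicle peaks, they were 58.2%, 5.51 points for a neighbour and 29.8 points by start. In the larger-area 50% of each list 8256 peaks were members, 41.4%, with 8.20, 4.99 and 39.5 points. Averaged over area deciles the differences were 4.46, 6.36 and 11.4 points. Without peaks at RefSeq starts, but with all chromosome 8 peaks, the difference for inside a gene was 0.686 points. Against all assigned distal peaks, the chromaffin list was at −34.3 points, −45.1 beyond 5 kb and 4.45 in the larger-area 50%. The IGF list was at −0.0267 points, −17.5 at equal length and −11.3 in the larger-area 50%, where cholesterol supply was at 21.1 (5.68 as reported), endothelial at −20.5 (−0.626) and immune at −45.5 (10.4). The cAMP element difference was 1.20 points and −0.00538 averaged over area deciles. For these changes the cause was not tested. The number of members was otherwise between 15153 (beyond 10 kb) and 20802 (summit inside a treated peak), and the ratio of median areas, 2.76 as reported, was lowest at 2.01 with lists of equal length. Averaged over area deciles the AP-1 difference (−2.06 points) and the NFY difference (0.852 points) changed sign too, at 4.74 and −3.76 points. The lists limit precision through their threshold, since peaks just under it are absent and read depth is unknown.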

Other observations

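Among the largest members with no RefSeq start, the peak 1170 bp from ZIC2, a neural zinc-finger gene (chr13:99979903-99983274), ranked 20 in EZH2i, 14 in CBPi, 11 in FSK and 7 in vehicle. A peak inside NEK7, a mitotic kinase gene (chr1:198156097-198159526), ranked 297 in EZH2i, 361 in CBPi, 177 in FSK and 16 in vehicle. Its treated summits lay −2200 bp from the vehicle summit in EZH2i, −2219 bp in CBPi and −2199 bp in FSK. A member on chromosome 3, 228833 bp from the nearest coding gene end (chr3:75434313-75436539), ranked 33 in EZH2i, 47 in CBPi, 22 in FSK and 17 in vehicle.

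Distal peaks that were not members were missing from 1, 2 or 3 treated lists. Of the 48491 distal peaks, 10573 were covered in none, 4731 were covered in FSK only, 3194 in CBPi only and 976 in EZH2i only. A further 3463 were covered in CBPi and FSK, 2700 in EZH2i and CBPi, and 1875 in EZH2i and FSK.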
